A study of Mus musculus with 6 samples.

Results

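The uroplakin family is described here in 2 mouse keratinocyte lines. It comprised the 5 genes *Upk1a*, *Upk1b*, *Upk2*, *Upk3a* and *Upk3b*, found by symbol among 24982 listed genes, of which 12409 had enough coverage to be tested. The family was chosen from the data because *Upk1b*, listed at the rounding step of the file in 1 line, was high in the other. Differences of the 5 members between the lines are therefore a description without a test.

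Uroplakins are membrane proteins of the urothelium, where they assemble into the plaques that cover the apical surface of umbrella cells and make it a barrier to urine. *Upk1a* and *Upk1b* encode tetraspanins, proteins that cross the membrane in 4 segments and gather partners around them, and each pairs with a partner that crosses the membrane once. The product of *Upk1a* pairs with that of *Upk2*, and the product of *Upk1b* with those of *Upk3a* or *Upk3b*. Outside the urothelium, *Upk1b* is known from corneal epithelium and *Upk3b* from mesothelium, and none of the 5 is a standard marker of epidermis.

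RNA-seq of poly(A) RNA compared 3 libraries of KSFM-Ca2+ cells with 3 libraries of DKSFM cells, to describe how the expression of the lines differed. The KSFM-Ca2+ cells are keratinocytes from neonatal skin of C57BL/6 mice, derived and kept in a serum-free medium low in calcium, without treatment. The DKSFM cells descend from them and were adapted to a defined serum-free medium with more calcium, also without treatment, after a transfer that few cells survived. The medium and the selection of the surviving cells therefore cannot be told apart. The labels do not say that the replicates were separate cultures, so p-values measure only the spread between these libraries, which may be technical. Values are the mean read coverage per base of each gene, listed to 1 decimal, so that levels can be compared between genes. Coverage added up over all genes came to 1601676.1, 1238410.7 and 1057750.5 in the KSFM-Ca2+ replicates 1 to 3. It came to 1174348.4, 1239437.8 and 1170674.9 in the DKSFM replicates 1 to 3. Means below are of coverage scaled between libraries, given ± the SD over 3 libraries. Log2 differences are DKSFM minus KSFM-Ca2+ on the log2(normalized coverage + 0.1) scale, which understates the change of low genes. A gene outside the family was called at an adjusted p under 0.01 (limma, Benjamini-Hochberg over the 12409 tested genes) and a difference of at least 2-fold.

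Markers of keratinocytes were present in both lines. Of 10 keratinocyte markers, 9 were tested, 3 were called higher and 0 lower. The 3 are 33.3% of the 9, against 13.2% of all tested genes called higher and 10.5% lower. *Krt14*, a basal keratin, was the most abundant marker, at 11975 ± 225 in the KSFM-Ca2+ cells and 29719 ± 1517 in the DKSFM cells. The differentiation keratin *Krt1* was listed at 0 in every KSFM-Ca2+ library, and the DKSFM libraries had 0.5, 0.8 and 0.2. Markers of other skin cells were low. *Col1a1*, *Col1a2*, *Col3a1*, *Dcn* and *Lum* of the fibroblast list were listed at 0 in all libraries. *Pdgfra*, the remaining gene of that list, was below the 2-fold threshold, at 1.11 ± 0.206 against 2.22 ± 0.119 without overlap (log2 difference 0.95, adjusted p = 7.32e-04 by limma). The melanocyte list summed to at most 0.890 and the immune cell list to at most 1.89 in any library. Of the immune list, *Cd74* was called lower, with a mean of 1.53 ± 0.337 in the KSFM-Ca2+ cells and 0 in the DKSFM libraries. Of the endothelial list, *Pecam1* was called higher, from 2.78 ± 0.255 to 7.58 ± 0.601, *Kdr* was listed at 0.1, 0.1 and 0 against 0.2 in each DKSFM library, and *Cdh5* was listed at 0 in all libraries. Of the Merkel cell list, 2 genes were tested and 0 called. *Sox2* was below the 2-fold threshold, at 3.97 ± 0.786 against 7.69 ± 0.419 without overlap (log2 difference 0.95, adjusted p = 3.64e-04 by limma), *Isl1* was at 0.744 ± 0.301 against 0.799 ± 0.0862, and *Atoh1* and *Piezo2* were listed at 0 in all libraries. The list summed to 5.56, 5.04 and 3.54 in the KSFM-Ca2+ replicates and to 8.71, 8.69 and 8.06 in the DKSFM replicates. The part of such cells in the results below was not tested.

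*Upk1b* was the one uroplakin with a high level. It was listed at 0.1 in each of the 3 KSFM-Ca2+ libraries. In the DKSFM libraries it was listed at 191.2, 172.5 and 189.0. All DKSFM libraries were thus high, all KSFM-Ca2+ libraries stood at the rounding step, and the groups did not overlap. Normalized coverage was 0.0977 ± 0.0209 in the KSFM-Ca2+ cells and 191.9 ± 17.0 in the DKSFM cells (SD, n = 3 each), a log2 difference of 9.93. Since a listed 0.1 can stand for any value from 0.05 to 0.15, the fold was 1964 as listed and lay between 1310 and 3929 within the rounding. In these bulk samples, more cells with *Upk1b* RNA and more *Upk1b* RNA per cell cannot be told apart. The mean level of *Upk1b* was above that of 90.4% of the tested genes in the DKSFM cells and above 1.91% in the KSFM-Ca2+ cells. With the median length of its transcripts and the read length of the study's methods, the step of 0.1 corresponded to about 1.38 reads and the highest library to about 2646. The range of the fold covers rounding only, not the sampling error of so few reads in the KSFM-Ca2+ libraries. The gene, ENSMUSG00000049436.5 in GENCODE M21, lies on the minus strand of chromosome 16 from 38773184 to 38800328 (mm10), and no other annotated gene overlaps it.

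*Upk1a*, the other tetraspanin of the family, was low in both lines. It was listed at 0.3, 0.3 and 0.4 in the KSFM-Ca2+ libraries. The DKSFM libraries had 0.7, 0.8 and 1.1. The DKSFM values were all higher and the groups did not overlap, at levels of about 18.4 reads in the highest library. Normalized coverage was 0.332 ± 0.126 in the KSFM-Ca2+ cells and 0.903 ± 0.230 in the DKSFM cells (SD, n = 3 each), a log2 difference of 1.23 that fell to 0.85 with quantile normalization and to 0.75 and 0.51 with pseudocounts of 0.5 and 1. Its mean was above that of 3.88% of the tested genes in the KSFM-Ca2+ cells and 6.25% in the DKSFM cells. *Upk1a* (ENSMUSG00000006313.5) lies on the minus strand of chromosome 7 from 30603092 to 30612847.

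The single-pass partners were at or near 0. *Upk2*, the partner of *Upk1a*, was listed at 0 in every library except DKSFM replicate 3, which had 0.2, about 2.55 reads. *Upk3a*, a partner of *Upk1b*, was listed at 0 in all 6 libraries. *Upk3b*, the other partner of *Upk1b*, was listed at 0 in every KSFM-Ca2+ library, and the DKSFM libraries had 0.2, 0.1 and 0.2. Its DKSFM values were thus at 1 or 2 rounding steps, about 8.31 reads at the highest, and no fold against a line listed at 0 is given. The high coverage of *Upk1b* in the DKSFM cells was therefore not accompanied by a like level of RNA from either of its known partners. As background, the *Upk1b* product is known to leave the endoplasmic reticulum without a partner, unlike those of *Upk1a*, *Upk2* and *Upk3a*. *Upk2* (ENSMUSG00000041523.3) lies on chromosome 9 from 44452715 to 44454976 on the minus strand. *Upk3a* (ENSMUSG00000022435.6) lies on chromosome 15 from 85017141 to 85022547 on the plus strand, where RefSeq also places the non-coding gene *Gm52194*. *Upk3b* (ENSMUSG00000042985.7) lies on chromosome 5 from 136038496 to 136046487 on the plus strand.

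Of the 5 members, *Upk1a* and *Upk1b* passed the filter on low coverage, 2 of 5, and both did so through the DKSFM libraries. Both were higher in the DKSFM cells without overlap. Among all tested genes, 13.2% were called higher and 10.5% lower in the DKSFM cells, and 83.3% did not overlap between the lines. Because the contrast chose the family, nothing is read from these counts for the members. By mean level, the order in the DKSFM cells was *Upk1b*, *Upk1a*, *Upk3b*, *Upk2* and *Upk3a*. *Upk3b* and *Upk2* did not differ beyond the spread between libraries in that order, nor did *Upk2* and *Upk3a*. In the KSFM-Ca2+ cells *Upk1a* stood above *Upk1b*, and *Upk2*, *Upk3a* and *Upk3b* were at 0. *Upk1b* made up 99.5%, 99.5% and 99.2% of the summed coverage of the 5 genes in the DKSFM replicates 1 to 3. In the KSFM-Ca2+ replicates the same share was 25%, 25% and 20% of sums of 0.4, 0.4 and 0.5, which are a few rounding steps.

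**Figure D1:**
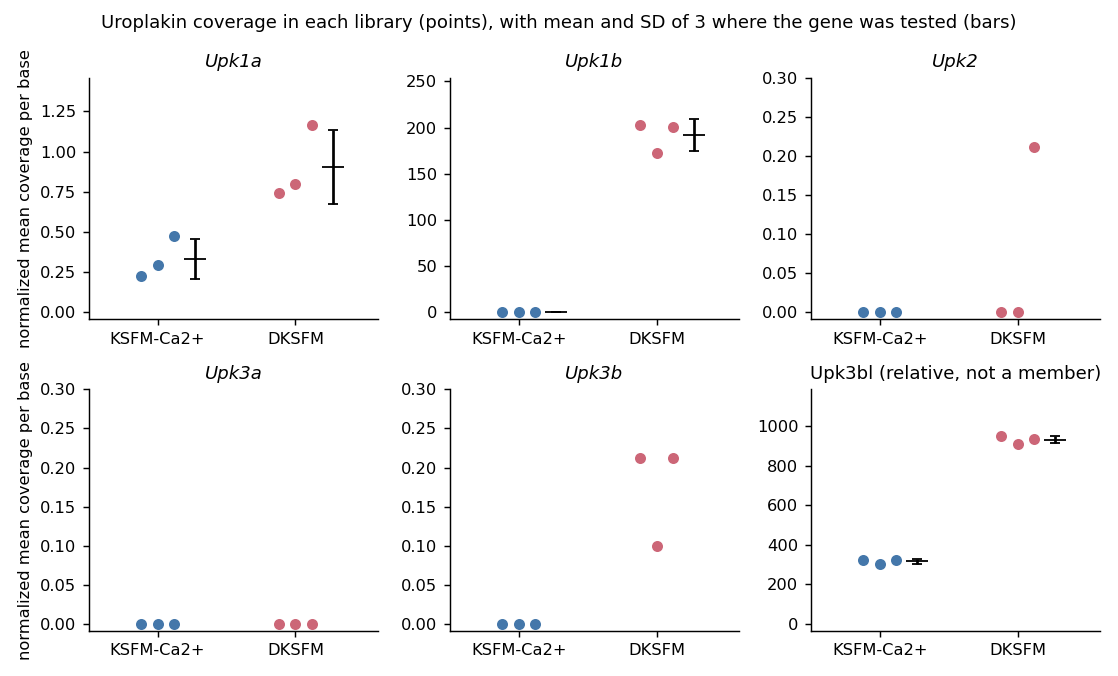
Normalized mean coverage per base (vertical axis, a scale of its own for each gene, from 0) of the 5 uroplakins and of *Upk3bl* in the 3 KSFM-Ca2+ libraries (blue) and the 3 DKSFM libraries (red), with mean and SD as bars for the genes that passed the filter. *Upk1b* goes from 0.0977 to 191.9 and *Upk1a* from 0.332 to 0.903, while *Upk2*, *Upk3a* and *Upk3b* stay at or near 0.

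The related gene *Upk3bl* (uroplakin 3b-like), which is not one of the 5 members, was abundant in both lines. It was listed at 424.8, 305.9 and 275.2 in the KSFM-Ca2+ libraries. The DKSFM libraries had 893.3, 911.2 and 881.2. The DKSFM libraries were all higher and the groups did not overlap. Normalized coverage was 317 ± 12.6 and 931 ± 19.1 (SD, n = 3 each), with a log2 difference of 1.55 (standard error 0.0349, adjusted p = 6.53e-09 by limma), higher in 3 of 3 DKSFM libraries. Its level was above that of 94.3% of the tested genes in the KSFM-Ca2+ cells and 98.5% in the DKSFM cells. In the DKSFM replicates 1 to 3 it was 4.67, 5.28 and 4.66 times that of *Upk1b*. *Upk3bl* (ENSMUSG00000006143.12) lies on the plus strand of chromosome 5 from 136054492 to 136064326, its GENCODE start 16.0 kb downstream of that of *Upk3b*. The neighbours thus stood near opposite ends of the range of levels in the same libraries. RefSeq places the non-coding gene *Gm40347* over *Upk3bl*, and how reads were shared between these genes was not tested.

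Because the levels of *Upk3b* and *Upk3bl* differed so widely, the bases before their RefSeq starts are shown, with those of *Upk1a*, which was above 0 in every library. RefSeq promoter entries (GRCm38.p6) were used for 3 of the 5 members, *Upk1a*, *Upk3a* and *Upk3b*, and for *Upk3bl*. Missing were *Upk1b* and *Upk2*. The window was the 250 bases before each RefSeq start, and bases that GENCODE places in an exon are left out, 113 of *Upk1a* and 76 of *Upk3bl*. The RefSeq starts of *Upk3a* and *Upk3b* are those of GENCODE, and that of *Upk1a* lies 113 bases downstream. That of *Upk3bl* lies 2775 bases downstream of the GENCODE start given above, so its bases come from inside the gene as GENCODE draws it. What remains is chr5:136038246-136038495 on the plus strand for *Upk3b*, chr5:136057017-136057190 on the plus strand for *Upk3bl* and chr7:30612848-30612984 on the minus strand for *Upk1a*, each written 5′ to 3′ in lower case.
Upk3b: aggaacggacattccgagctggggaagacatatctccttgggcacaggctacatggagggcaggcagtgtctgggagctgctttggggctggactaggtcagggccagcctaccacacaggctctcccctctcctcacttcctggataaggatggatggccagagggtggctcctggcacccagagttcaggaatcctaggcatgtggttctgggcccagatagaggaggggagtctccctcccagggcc
Upk3bl: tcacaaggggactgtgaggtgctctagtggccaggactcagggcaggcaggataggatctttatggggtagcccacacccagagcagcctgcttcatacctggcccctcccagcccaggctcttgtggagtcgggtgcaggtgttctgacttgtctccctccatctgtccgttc
Upk1a: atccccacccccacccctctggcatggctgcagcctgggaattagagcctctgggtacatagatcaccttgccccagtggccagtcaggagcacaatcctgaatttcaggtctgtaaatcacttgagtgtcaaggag
GC content of the bases shown was 60.8% for *Upk3b*, 59.8% for *Upk3bl* and 54.7% for *Upk1a*. The whole windows were searched on both strands for 3 motifs of factors known in urothelium. AACNNGTT, the motif of grainyhead-like factors, was in 3.64% of 32851 windows of this length, and AGATAA, preferred by GATA factors, was in 9.99%. The other motif, a direct repeat of AGGTCA with 1 base between its copies that PPAR and RXR are known to bind, was in 0.0335%. *Upk3bl* had 1 match, AACCAGTT, which begins 9 bases before the RefSeq start (position -9), within the bases left out. *Upk3a* had 1 match to the GATA motif, read as TTATCT from position -188. The windows of *Upk1a* and *Upk3b* matched none of the 3, so no capitals appear in the lines above. A match describes these letters and is not a site of binding, and the lack of one holds only for the 3 strings searched.

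Among tetraspanins, *Upk1b* went from one of the lowest to one of the highest. Of 29 tetraspanins besides the uroplakins, 19 were tested, 5 were called higher and 3 lower in the DKSFM cells. These calls are 26.3% and 15.8% of the 19, against 13.2% and 10.5% of all tested genes. The median log2 difference of the 19 was 0.30, against -0.00122 over all tested genes. In the KSFM-Ca2+ replicates 22, 21 and 21 of the 29 were listed above *Upk1b*. In the DKSFM replicates 4, 5 and 4 were. Those above it were *Cd63*, *Cd9*, *Cd81* and *Cd151*, widely expressed partners of integrins and other receptors, joined in DKSFM replicate 2 by *Tspan3*. *Cd63*, a tetraspanin of late endosomes, was the most abundant in both lines, at 1521 ± 33.0 and 1605 ± 8.28. *Upk1b* took 4.40%, 3.66% and 4.30% of the summed tetraspanin coverage in the DKSFM replicates 1 to 3. In the KSFM-Ca2+ replicates this share was 0.00194%, 0.00248% and 0.00293%, so the lines did not overlap.

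The tetraspanins called higher were *Tspan5*, *Tspan12*, *Tspan15*, *Tspan33* and *Cd82*. *Tspan12*, a co-receptor in norrin signalling through frizzled receptors, went from 13.0 ± 0.591 to 84.5 ± 5.83 (log2 difference 2.70, standard error 0.0611, adjusted p = 6.97e-09 by limma). *Tspan15*, which guides the protease ADAM10 to its substrates, was listed at 0.3, 0.2 and 0.3 against 4.2, 4.5 and 4.5 (log2 difference 3.72, or 2.15 with a pseudocount of 1). Both were higher in 3 of 3 DKSFM libraries without overlap. *Tspan5*, another partner of ADAM10, had a log2 difference of 1.495 and *Cd82* of 1.17. *Tspan33*, with a log2 difference of 1.45 at a mean of 1.04 ± 0.270 in the DKSFM cells, was no longer called with a pseudocount of 0.5 (log2 difference 0.91) or 1 (0.63). The 3 called lower were *Tspan4*, *Tspan7* and *Tspan13*, with log2 differences of -1.26, -1.25 and -4.16, the last falling to -2.13 with a pseudocount of 1.

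**Figure D2:**
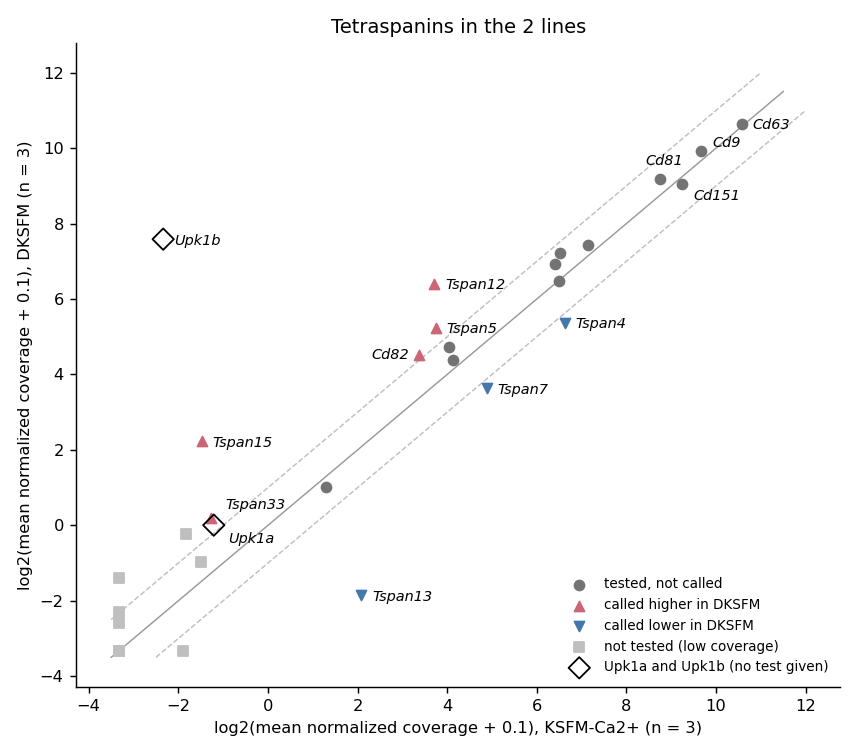
Mean normalized coverage of the tetraspanins in the KSFM-Ca2+ cells (horizontal) and the DKSFM cells (vertical), both as log2 of the value + 0.1, with the line of equality and dashed lines at a 2-fold difference. *Upk1b*, a diamond at the upper left, stands apart from the diagonal, with 0.0977 against 191.9, and *Cd63* is the highest point.

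Transcription factors and signals known to act in urothelial differentiation were mostly present, with the exception of *Pparg*, *Shh* and *Foxa1*. Of 14 such genes, 11 were tested, 2 were called higher and 0 lower, with a median log2 difference of 0.60. The 2 are 18.2% of the 11, against 13.2% of all tested genes called higher and 10.5% lower. The 2 were *Grhl3*, a grainyhead-like factor needed for the maturation of umbrella cells and of the epidermal barrier, and *Ehf*, an epithelial ETS factor. *Grhl3* was listed at 7.6, 5.0 and 4.3 in the KSFM-Ca2+ libraries, and the DKSFM libraries had 10, 12.9 and 13.0, a log2 difference of 1.22 (standard error 0.112, adjusted p = 1.60e-05 by limma). *Ehf* was listed at 12.8, 8.4 and 6.5 against 36.1, 42.6 and 38.1, a log2 difference of 2.23 (adjusted p = 1.26e-07 by limma). Neither gene overlapped between the lines. *Pparg*, the nuclear receptor that drives urothelial maturation, and *Shh* were listed at 0 in all 6 libraries. *Foxa1* was listed at 0.2, 0.1 and 0.3 in the KSFM-Ca2+ libraries and at 0 in the DKSFM libraries, too low to be tested. *Gata3* and *Rxra*, the partner receptor of *Pparg*, were below the 2-fold threshold with log2 differences of 0.91 and 0.75. *Trp63*, which is also on the keratinocyte list, was the most abundant of the regulators in both lines, and their summed coverage was 753.9, 730.6 and 695.7 in the KSFM-Ca2+ replicates against 955.6, 961 and 1002 in the DKSFM replicates.

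Genes of umbrella cells, the cells that carry uroplakin plaques, moved in both directions. Of 10 such genes, 7 were tested, 4 were called higher and 2 lower, with a median log2 difference of 2.53. These calls are 57.1% and 28.6% of the 7, against 13.2% and 10.5% of all tested genes. *Krt8* and *Krt18*, the paired keratins of simple epithelia, were listed at 0.2 or less in every KSFM-Ca2+ library. *Krt8* was at 66.2, 64.7 and 64.6 in the DKSFM libraries and *Krt18* at 22.0, 20.5 and 18.7. These pairs did not overlap between the lines, with log2 differences of 8.59 and 7.46, or 5.98 and 4.44 with a pseudocount of 1. *Psca*, a surface antigen found in bladder and stomach epithelium, went from 1.13 ± 0.368 to 18.7 ± 1.20 (log2 difference 3.98), and *Krt19* from 0.225 ± 0.202 to 1.59 ± 0.312 (log2 difference 2.53, or 1.08 with a pseudocount of 1). *Krt20*, the keratin that defines umbrella cells, was listed at 0 in 5 of the 6 libraries and at 0.1 in KSFM-Ca2+ replicate 2. The claudin genes *Cldn3* and *Cldn7* were listed at 0 in all libraries. *Krt7* and *Cldn4* were the called genes that were lower, *Krt7* with 907 ± 75.3 against 311 ± 2.77 (log2 difference -1.54) and *Cldn4* with 856 ± 35.6 against 419.8 ± 10.2 (log2 difference -1.03). The call of *Cldn4* was lost without KSFM-Ca2+ replicate 3 or without DKSFM replicate 1 (log2 differences of -0.99995 and -0.99857, just inside the threshold), and with quantile normalization (-0.97). Summed over the list, coverage was 1804, 1788 and 1959 in the KSFM-Ca2+ replicates and 898.8, 915.4 and 904.9 in the DKSFM replicates, most of it from *Krt7* and *Cldn4*.

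Of 6 keratins of the basal and intermediate urothelium, 5 were tested and 5 were called higher, with a median log2 difference of 1.31. The calls are 100% of the 5, against 13.2% of all tested genes. *Krt5* and *Krt14* are also keratinocyte markers, and the study names *Krt15* as a marker of epidermal progenitors. The list is thus not particular to urothelium. *Krt13*, a keratin of intermediate urothelial cells and of other stratified epithelia that line inner surfaces, was listed at 7.7, 4.7 and 2.7 against 88.6, 139 and 105, and *Krt15* at 22.6, 13.7 and 8.4 against 379.9, 378.9 and 371.6. Both were high in all DKSFM libraries without overlap, with log2 differences of 4.65 and 4.88. The call of *Krt14* was lost with quantile normalization (log2 difference 0.93 in place of 1.31). *Krt4*, the remaining gene, was at 0.3 or less in every library.

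The machinery that carries uroplakins to and from the apical surface was mostly present. Listed at 0 in every library of a line were 2 genes in the DKSFM cells and 1 in the KSFM-Ca2+ cells. Of 12 such genes, 10 were tested, 3 were called higher and 1 lower, with a median log2 difference of 0.24. These calls are 30% and 10% of the 10, against 13.2% and 10.5% of all tested genes. *Mal*, a raft protein that helps vesicles with uroplakins join the apical membrane, was listed at 0.2, 0.1 and 0.2 in the KSFM-Ca2+ libraries, whereas the DKSFM libraries had 218.7, 254.2 and 222.6. Its DKSFM values were all above those of *Upk1b*, and its KSFM-Ca2+ values were likewise within 1 or 2 rounding steps. *Rab27b*, a small GTPase on uroplakin vesicles, went from 38.6 ± 2.09 to 109 ± 3.50 (log2 difference 1.498), and the vesicle SNARE *Vamp8* from 229 ± 13.8 to 497 ± 13.4 (log2 difference 1.12). *Myo5b*, a motor on recycling endosomes, was called lower, from 9.72 ± 0.301 to 3.25 ± 0.301 (log2 difference -1.56). *Furin*, the protease that trims the precursor of the *Upk2* product, was below the 2-fold threshold with a log2 difference of 0.77. *Snx31*, a sorting nexin that takes uroplakins to lysosomes, was listed at 0 in all libraries, and *Sytl2* at 0.1 or less. Summed coverage of the list was 688.9, 704.6 and 716 in the KSFM-Ca2+ replicates and 1270, 1285 and 1258 in the DKSFM replicates, with *Vamp8* the most abundant gene in both lines.

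**Figure D3:**
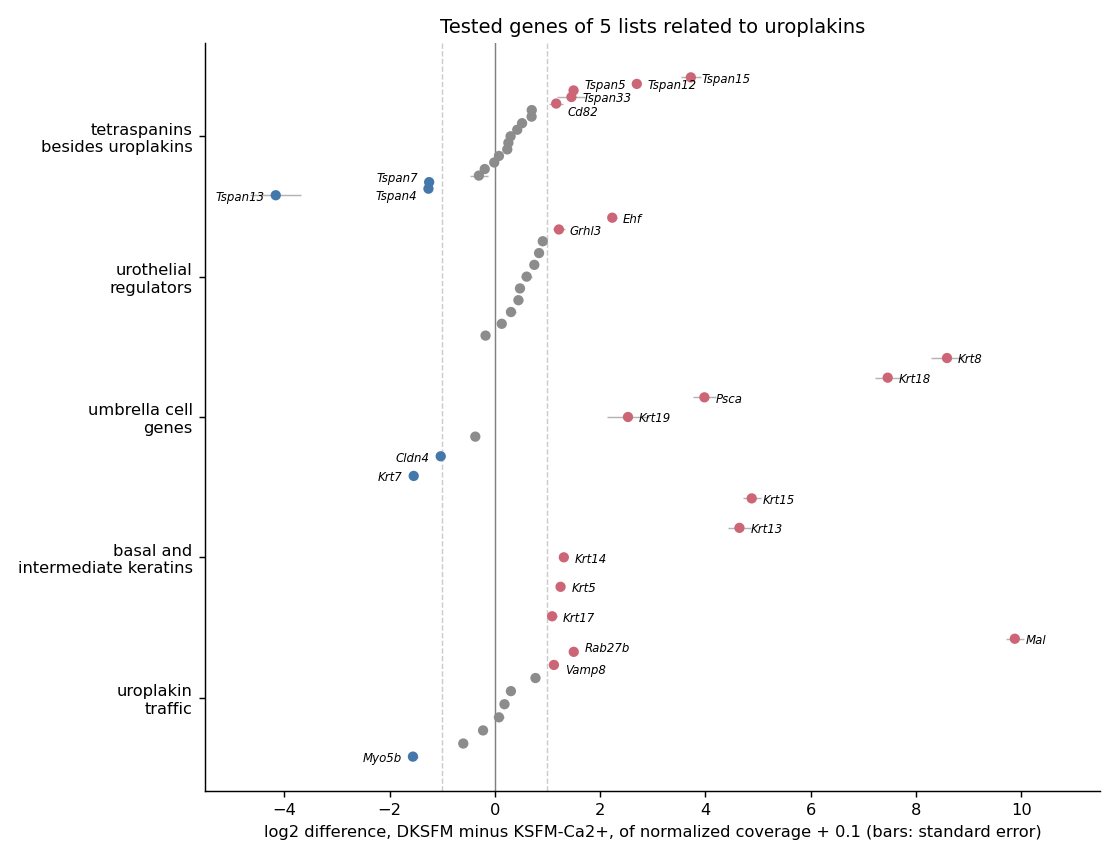
Log2 difference of normalized coverage + 0.1 (horizontal, DKSFM minus KSFM-Ca2+, bars for the standard error) of the tested genes in 5 lists related to uroplakins, with genes called higher in red, lower in blue and the rest in grey. *Mal* (9.87), *Krt8* (8.59) and *Krt18* (7.46) lie farthest to the right and *Tspan13* (-4.16) farthest to the left.

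Mesothelium, where *Upk3b* is also used, had few marks here. Of 9 mesothelial markers with a value, 1 was tested and 0 were called in either direction. *Msln* was that gene, at 740.4 ± 10.3 in the KSFM-Ca2+ cells and 374 ± 9.36 in the DKSFM cells (log2 difference -0.99, adjusted p = 2.06e-08 by limma), just inside the 2-fold threshold. *Msln* made up nearly all of the list's summed coverage of 732.5, 737 and 752.6 in the KSFM-Ca2+ replicates and 378.7, 363.1 and 380.5 in the DKSFM replicates. *Wt1*, *Lrrn4*, *Gpm6a*, *Tbx18* and *Rspo1*, 5 of the 9, were listed at 0 in all libraries.

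The genes most like *Upk1b* over the 6 libraries, by Euclidean distance of log2(normalized coverage + 0.1), were *Mal* (distance 1.03), *Gdpd2* (1.22), *Medag* (1.43), *Glul* (1.51), *Emb* (1.83) and *Mtus1* (1.94). They are described here without a test because the likeness chose them. *Mal* is also on the traffic list above, where its call is counted. *Mal* and *Glul*, the enzyme that makes glutamine, had 241 ± 11.7 and 292 ± 5.81 in the DKSFM cells (SD, n = 3). *Gdpd2*, a glycerophosphodiester phosphodiesterase, had 183 ± 10.2, the level nearest to that of *Upk1b*. In the KSFM-Ca2+ cells none of the 6 was listed above 0.3 in any library. *Krt8* was number 15 in this order, *Krt18* number 70 and *Upk3bl* number 14377.

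*Upk1b* was among the highest of the genes near 0 in the parent line. Listed values were at or under 0.1 in all 3 KSFM-Ca2+ libraries for 11438 genes, of which 1902 were above 0 in at least 1 DKSFM library. Mean DKSFM coverage was at least 0.5 for 300 of them, at least 10 for 51 and at least 100 for 7. *Upk1b* was number 4 of these by mean DKSFM level. The cut of 0.1 is the value of *Upk1b* itself, and it leaves out *Medag*, *Glul* and *Mal*, which were listed at up to 0.3 in the KSFM-Ca2+ libraries and had higher DKSFM means than *Upk1b* (318, 292 and 241), so the place in this order depends on the cut. Above it were *Lox*, the lysyl oxidase that crosslinks collagen and elastin, with 359 ± 10.6, *Rtl3*, derived from a retrotransposon gag gene, with 284 ± 0.473, and *Emb*, an immunoglobulin-family partner of monocarboxylate transporters, with 243 ± 11.2. *Mtus1*, a microtubule-associated protein, followed with 133 ± 2.20. *Upk3b* was number 611 in the same order.

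**Figure D4:**
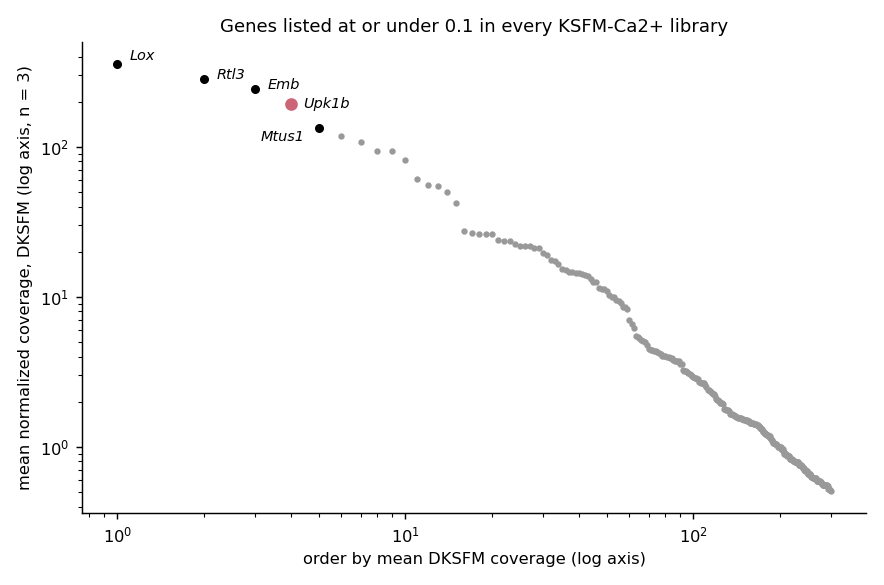
Mean normalized DKSFM coverage (vertical, log axis) of the 300 genes listed at or under 0.1 in every KSFM-Ca2+ library that reached a DKSFM mean of 0.5, in descending order (horizontal, log axis). *Upk1b*, in red, is number 4 with 191.9, between *Emb* (243) and *Mtus1* (133).

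The genes around *Upk1b* had differences of their own between the lines. Because *Upk1b* was chosen for its large difference, nothing is read from smaller ones in its neighbours. Of 14 genes with a start within 500 kb of that of *Upk1b*, 10 were tested, 0 were called higher and 3 lower, with a median log2 difference of -0.52 and a highest one of 0.78. The 3 called are 30% of the 10, against 23.7% of all tested genes called in either direction, 13.2% higher and 10.5% lower, so nothing particular to this stretch is read from them. The nearest tested gene downstream, *B4galt4*, a galactosyltransferase with its start 58.1 kb away, went from 30.4 ± 2.86 to 8.46 ± 0.710 (log2 difference -1.83, standard error 0.0867, adjusted p = 3.09e-07 by limma). *Pla1a*, a phospholipase 367 kb away, went from 12.6 ± 0.784 to 0.905 ± 0.186 (log2 difference -3.68). *Arhgap31*, 87.1 kb away, had 0.648 ± 0.0984 against 0.0687 ± 0.0596 (log2 difference -2.21), and its call was lost with a pseudocount of 1 (-0.63). *Cox17*, a copper chaperone of the respiratory chain 453 kb away, stood above *Upk1b* in the DKSFM cells at 247 ± 18.8, but had 295 ± 5.62 in the KSFM-Ca2+ cells and was not called (log2 difference -0.26). Upstream of *Upk1b*, *Igsf11*, *Gm36742* and *4930435E12Rik* had a mean of 0 in both lines.

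Around all 5 uroplakin genes, 96 of 152 genes with a value were tested, 14 were called higher and 10 lower, with a median log2 difference of -0.10. These calls are 25% of the 96, close to the 23.7% of all tested genes. Near *Upk3b*, 19 were tested, of which *Dtx2* (log2 difference 2.21) and *Upk3bl* (1.55) were called higher and *Ssc4d* (-1.26) and *Rasa4* (-1.17) lower, the call of *Ssc4d* being lost with a pseudocount of 1 (-0.82). *Dtx2*, a ubiquitin ligase of the Notch pathway 43.7 kb upstream, had 59.1 ± 0.884 against 273 ± 5.46. Near *Upk3a*, 7 were tested and 1 was called, *Fbln1*, a matrix protein 189 kb away, from 0.137 ± 0.0864 to 43.0 ± 0.962 (log2 difference 7.57). *Upk3a* itself was at 0 throughout. Near *Upk2*, 24 were tested, with 3 called higher and 1 lower. Near *Upk1a*, 36 were tested, with 8 called higher and 4 lower.

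**Figure D5:**
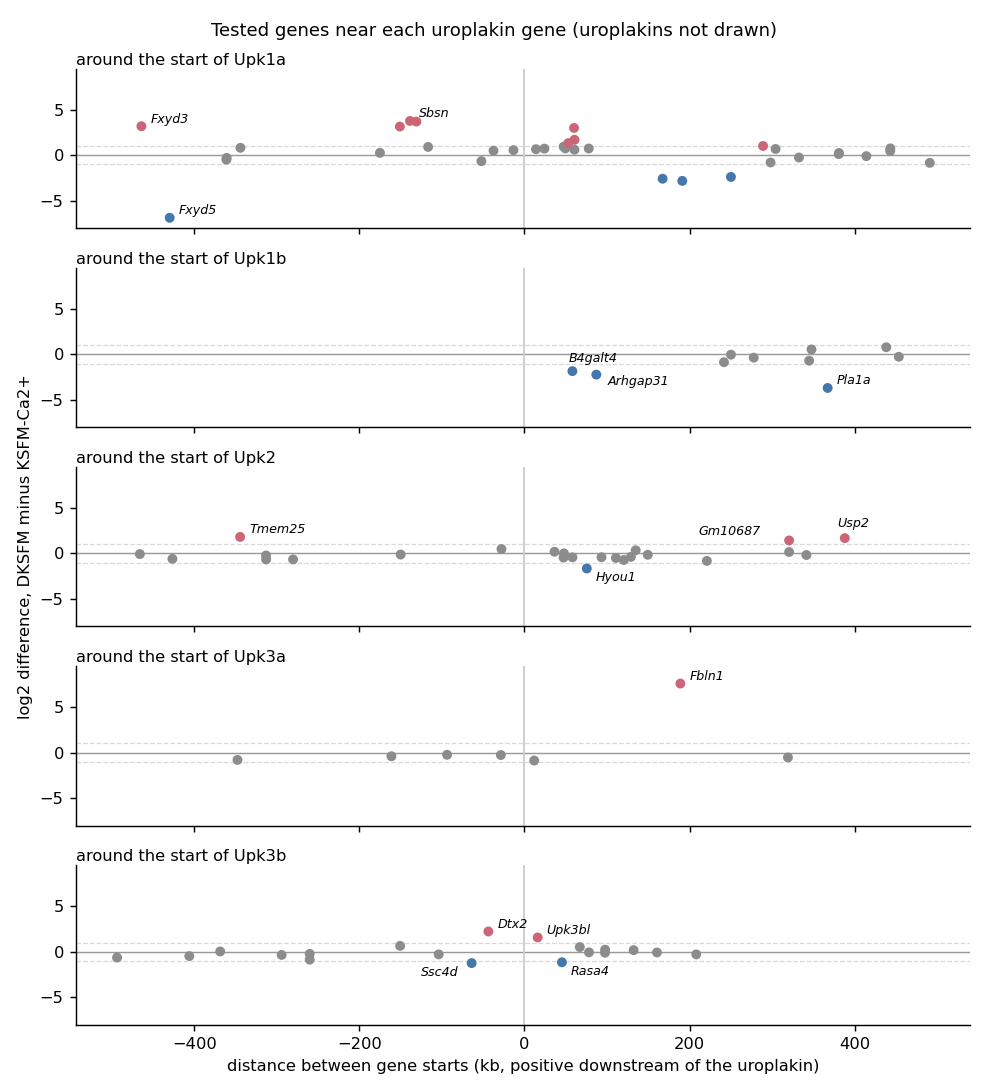
Log2 difference of normalized coverage + 0.1 (vertical, DKSFM minus KSFM-Ca2+) of tested genes within 500 kb of each uroplakin start (horizontal, distance in kb, positive downstream), with genes called higher in red, lower in blue and the rest in grey. Around *Upk1b* the 10 tested genes lie between -3.68 and 0.78 and 0 of them were called higher.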

How the data were processed

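Directional poly(A) libraries were sequenced as single reads, and the authors used STAR with the RefSeq annotation of mm10 for alignment, Salmon for quantification and DESeq2 for their own comparison. The authors deposited a signal, the mean read coverage per base of each gene to 1 decimal, without scaling to library size. How coverage was computed is not given in the sources used here. No counts were used, so limma took the place of a count model and no counting interval is given.

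Libraries were scaled by trimmed means of M values without weights (trims of 0.3 and 0.05, factors from 0.991 to 1.01) to the geometric mean of the library totals. Genes that reached 0.5 after scaling in 3 or more libraries were tested by linear models in limma 3.58.1 (R 4.3.3) on log2(value + 0.1), with an intensity trend and no covariate, two-sided, with Benjamini-Hochberg adjustment. The thresholds are those of the study. The procedure was tested on simulated data. Python 3.11.15 and matplotlib 3.10.9 were used, with positions and transcript lengths from GENCODE M21.

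The members and lists were chosen with earlier results of these data known. Genes given by name are the list genes, the 6 genes nearest to *Upk1b*, the highest genes near 0 in the KSFM-Ca2+ cells and the tested genes within 500 kb of *Upk1b*. *Dtx2*, *Ssc4d*, *Rasa4*, *Fbln1*, *Fxyd3*, *Fxyd5*, *Sbsn*, *Dmkn*, *Krtdap*, *Igsf11*, *Gm36742* and *4930435E12Rik* were named after their values were seen. The mesothelial list lacks 1 gene, *Muc16*, which is not analysed here. Alternatives were other scalings, filters and pseudocounts, no trend, a replicate block, an adjusted p of 0.05 and each library left out. A further one used only the 4 libraries whose deposited data carry an unexplained mark of having been combined. These are KSFM-Ca2+ replicate 3 and the 3 DKSFM replicates. The mark therefore goes largely with the line, and only KSFM-Ca2+ replicate 3 separates them.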

Additional observations from a re-analysis of the deposited data

How the results depend on the processing

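Of 44 tested genes outside the family named from the lists or from the surroundings of *Upk1b*, 30 were called. Genes chosen by likeness to *Upk1b* or by their values are not counted. All 30 were still called in the same direction with relative log expression size factors, library totals, no filter, no trend, an adjusted p of 0.05 and the replicate block, 28 with quantile normalization, which lost *Cldn4* and *Krt14*, 29 with a pseudocount of 0.5 and 28 with one of 1. A pseudocount of 1 shrank the differences of low genes, as for *Cd74* (-1.33, from -4.01). With coverage of at least 0.5 in every library 22 of the 30 were tested and all 22 were called. With 1 library left out 29 or 30 were called, *Cldn4* being the one lost. *Sox2* was gained without KSFM-Ca2+ replicate 1 or 2 (1.05 and 1.03) and *Pdgfra* without KSFM-Ca2+ replicate 3 (1.07). No direction among the 30 changed.

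The libraries marked as combined set 1 KSFM-Ca2+ library against 3 DKSFM libraries. All the spread there comes from the DKSFM cells, and the lone library is assumed to vary like them, so calls gained or lost there rest on 1 library. There 25 of the 30 were called. *Tspan13* (-4.30), *Tspan33* (1.71) and *Arhgap31* (-2.05) kept differences above 2-fold but did not reach an adjusted p under 0.01, and *Cd82* (0.87) and *Krt17* (0.96, from 1.09) fell below 2-fold. *Msln* (-1.01, from -0.99) and *Sox2* (1.29, from 0.95) crossed the threshold. *Ssc4d*, which is not among the 30, also lost its call there, though its log2 difference was larger (-1.52, from -1.26). By list, 3 tetraspanins and 4 keratins were called higher and 1 mesothelial marker lower.

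Coverage of at least 0.5 in every library leaves fewer genes to test, 11112, and drops genes absent from 1 line. It gave 1032 genes called higher, 3 tetraspanins and 1 umbrella cell gene. With quantile normalization keratins called higher went from 5 to 4 and umbrella cell genes called lower from 2 to 1. The latter lay between 1 and 2 with libraries left out. Without a filter 1 urothelial regulator, *Foxa1*, was called lower (-1.50). The log2 difference of *Upk1b* was 8.33 and 7.45 with pseudocounts of 0.5 and 1. That of *Upk1a* was 0.75 and 0.51, and 0.85 with quantile normalization. Leaving out 1 library gave 9.81 to 10.02 for *Upk1b* and 1.04 to 1.46 for *Upk1a*, and a mean of 182 to 202.1 for *Upk1b* in the DKSFM cells.

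Deviations of libraries that share a replicate number had correlations of -0.00509, 0.0239 and -0.0061. Those of libraries with different numbers lay between -0.037 and 0.04. Such values cannot show whether libraries with the same number were prepared together, which the labels do not say. With the number as a replicate block, 1641 genes were called higher and 1304 lower. The replicate block left the following counts as they were: 5 and 3 tetraspanins, 2 and 0 urothelial regulators, 4 and 2 umbrella cell genes, 5 and 0 keratins, 3 and 1 traffic genes, 0 and 0 mesothelial markers, and 24 genes near uroplakins. Other settings moved the count of called genes near uroplakins. It was 29 without a filter, 19 with a pseudocount of 1 and 16 with coverage of at least 0.5 in every library. The rounding step of 0.1 limits *Upk1a*, *Upk2*, *Upk3a* and *Upk3b* throughout and *Upk1b* in the KSFM-Ca2+ cells.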

Other observations

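Of the 36 tested genes around *Upk1a*, 12 were called in either direction (33.3%), against 23.7% of all tested genes. The same share was 30% around *Upk1b*, 16.7% around *Upk2*, 14.3% around *Upk3a*, 21.1% around *Upk3b* and 25% around all 5. The stretch also carries genes of the cornified epidermis. *Sbsn* and *Dmkn*, secreted proteins of differentiating keratinocytes, had 58.1 ± 3.61 and 480 ± 8.42 in the KSFM-Ca2+ cells against 795 ± 30.4 and 4292 ± 26 in the DKSFM cells, with log2 differences of 3.77 and 3.16. *Krtdap*, another secreted protein of differentiating keratinocytes in the same stretch, overlapped between the lines and was not called, at 121 ± 1.80 against 151 ± 44.3 (log2 difference 0.27, adjusted p = 0.163 by limma). *Fxyd3* and *Fxyd5*, which encode regulators of the sodium pump, differed in opposite directions, from 117 ± 1.36 to 1066 ± 22.0 and from 131 ± 12.5 to 1.07 ± 0.328, with log2 differences of 3.19 and -6.85. The starts of these 5 genes lie 138.6 to 463.9 kb upstream of that of *Upk1a*, which itself was at 0.903 in the DKSFM cells.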
